A study of Mus musculus with 29 samples.

Results

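These are the stretches of the mouse liver genome at which binding of the glucocorticoid receptor (GR) was listed in mice with the GRdim mutation and in no list from wild-type (WT) mice. The peaks of the 6 GR ChIP-seq lists were merged into regions wherever they overlapped by at least 1 bp, which gave 15329 regions. Of these, 473 held a peak of at least 1 GRdim list and none of a WT list, or 3.09% of all regions, while 7412 were listed in both genotypes and 7444 in WT lists only. The 473 were chosen by the peak lists themselves, so their presence in GRdim lists and absence from WT lists, and the scores that put them there, are a description and carry no test.

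GR and C/EBPβ were mapped in livers of male mice of 12 weeks, back-crossed to BALB/c for 4 generations or more and kept in a 12 h light cycle. The mice were homozygous wild-type litter-mates (GR+/+) or carried GRdim. Livers of both genotypes were collected untreated at 6am, when the lights went on, untreated at 6pm, when they went off, and at 6am after 24 h under prednisolone from pellets placed under the skin at 12 mg/kg. GR was profiled under all these conditions with ChIP-seq and also with ChIP-exo, where digestion by an exonuclease up to the bound protein sharpens the edges of a site, and C/EBPβ was profiled by ChIP-seq in WT only. Each list came from 2 replicates that the authors had pooled, so a condition is 1 measurement with no spread between animals, and no p-value can be given. Intervals are 95% Wilson intervals of a share or Newcombe intervals of a difference, and they cover only the counting of regions, which are not replicates. The sources used here do not say whether the ChIP-seq and ChIP-exo libraries came from the same livers.

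GR is the nuclear receptor for corticosterone, whose level in mice rises towards the dark phase, and for synthetic glucocorticoids such as prednisolone. It binds palindromic response elements as a dimer, and it also binds DNA through single half-sites and alongside other transcription factors. The GRdim mutation lies in the dimer interface of the DNA-binding domain and impairs dimerization without removing the receptor. C/EBPβ is a transcription factor abundant in hepatocytes whose sites are often shared with GR in liver.

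Every peak was 200 bp wide and carried a score of the authors, whose unit is not stated in the labels or the lists. The lowest score of the GR lists lay between 2.00 and 2.03, so a region that is missing from a list can hold weaker binding. WT had more peaks than GRdim in each condition, with 5781 against 3183 at 6am, 14270 against 7440 at 6pm and 4304 against 3208 after prednisolone. The long WT list of 6pm decided most of the membership: without it 3062 regions counted as GRdim-only, against 504 without the WT 6am list and 523 without the WT prednisolone list. The ChIP-exo lists held 10 bp borders with the number of tags and the same scaled to library size (RPM, as the authors give it, per M tags). By file they held 14391 to 35658 borders from 31.6 to 45.2 M tags in GRdim and 49189 to 66573 borders from 43.1 to 55.7 M tags in WT. The smallest was the GRdim 6am library, and a border below the least number of tags listed, 3 or 4, is not seen. Positions are in mm9 and counted from 1, and since no annotation of that build was used here, regions carry no gene name.

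Most GRdim-only regions were listed in 1 condition. The 6pm list alone gave 261 of them, the prednisolone list alone 89 and the 6am list alone 35. A further 56 were listed at 6pm and after prednisolone, 17 at 6am and 6pm, 7 at 6am and after prednisolone, and 8 in all 3 lists. Thus 385 regions, or 81.4%, rested on 1 GRdim list, against 48.6% of the regions of both genotypes, and 1.69% stood in all 3 GRdim lists, against 27.5%. As a share of each GRdim list, these regions took 67 of 3183 peaks at 6am (2.10%), 342 of 7440 at 6pm (4.60%) and 160 of 3208 after prednisolone (4.99%).

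Scores were mostly near the lowest that was listed. At 6am the GRdim-only regions scored from 2.03 to 4.20 with a median of 2.31, while the regions of both genotypes in the same list had a median of 2.71. At 6pm the range was 2.00 to 7.45 and the median 2.28, against 2.95. After prednisolone the range was 2.01 to 7.84 and the median 2.34, against 2.60. In each list the ranges of both kinds of region overlapped over their whole lower part, and the higher-scoring 50% of the list held 14 of the 67, 41 of the 342 and 48 of the 160 GRdim-only peaks. Taking the highest score of each region, 321 of the 473 lay below 2.5, 50 reached 3 and 14 reached 4. Of the 64 regions listed at 6pm and after prednisolone, 26 scored higher after prednisolone, and scores of different lists share no known scale.

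**Figure D1:**
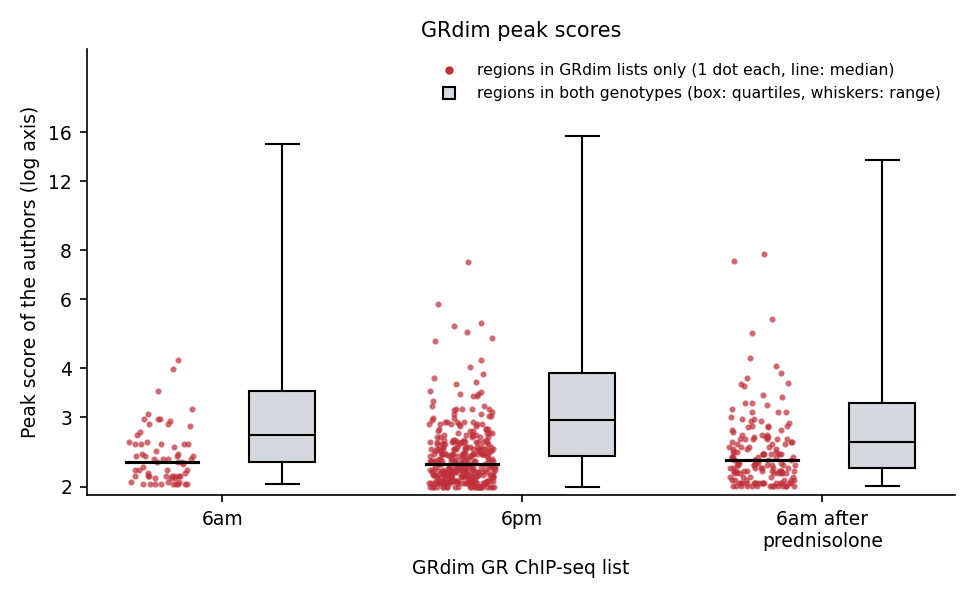
Peak scores of the authors (log axis) in the 3 GRdim GR ChIP-seq lists. Red dots are regions listed in GRdim only, with their median as a line (2.31, 2.28 and 2.34), and grey boxes are the quartiles and range of regions of both genotypes, whose medians were 2.71, 2.95 and 2.60; few red dots stand above a score of 4.

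The highest-scoring GRdim-only region, chr3:9822077-9822279, scored 4.95 at 6pm and 7.84 after prednisolone, where it ranked 8 of 3208 peaks, and was not listed at 6am. GRdim ChIP-exo listed 13 borders in it at 6pm, the strongest at 0.776 RPM (34 tags), and 12 after prednisolone, the strongest at 1.59 RPM (72 tags). None of the 3 WT libraries listed a border in it, and no C/EBPβ list held a peak there. The strong binding in GRdim thus had no listed counterpart in WT in either assay. A WT 6pm peak with a score of 3.69 began 243 bp away, at chr3:9821634-9821833, and this neighbouring site was listed in all 3 GRdim lists as well, with scores of 2.21 (6am), 3.55 (6pm) and 3.27 (prednisolone). WT ChIP-exo borders, at 0.197 to 0.487 RPM, clustered at the neighbouring site, 361 to 513 bp from the centre of the GRdim-only peak.

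The next, chr10:7494139-7494340, scored 7.45 at 6pm (rank 142) and 7.51 after prednisolone (rank 9), with the nearest WT peak 36918 bp away. GRdim borders reached 1.58 RPM (69 tags) at 6pm and 2.81 RPM (127 tags) after prednisolone, with 13 and 14 borders. WT libraries listed 1 border of 0.179 RPM (10 tags) at 6am, none at 6pm and 2 after prednisolone of up to 0.165 RPM (9 tags). Binding was therefore listed in WT too by ChIP-exo, at levels far below those of GRdim. After prednisolone the strongest GRdim borders of the chr10 region stood at -45 bp from the peak centre on the plus strand and -12 bp on the minus strand, and those of the chr3 region at -1 and 14 bp, so in both the strongest borders of the strands faced each other.

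**Figure D2:**
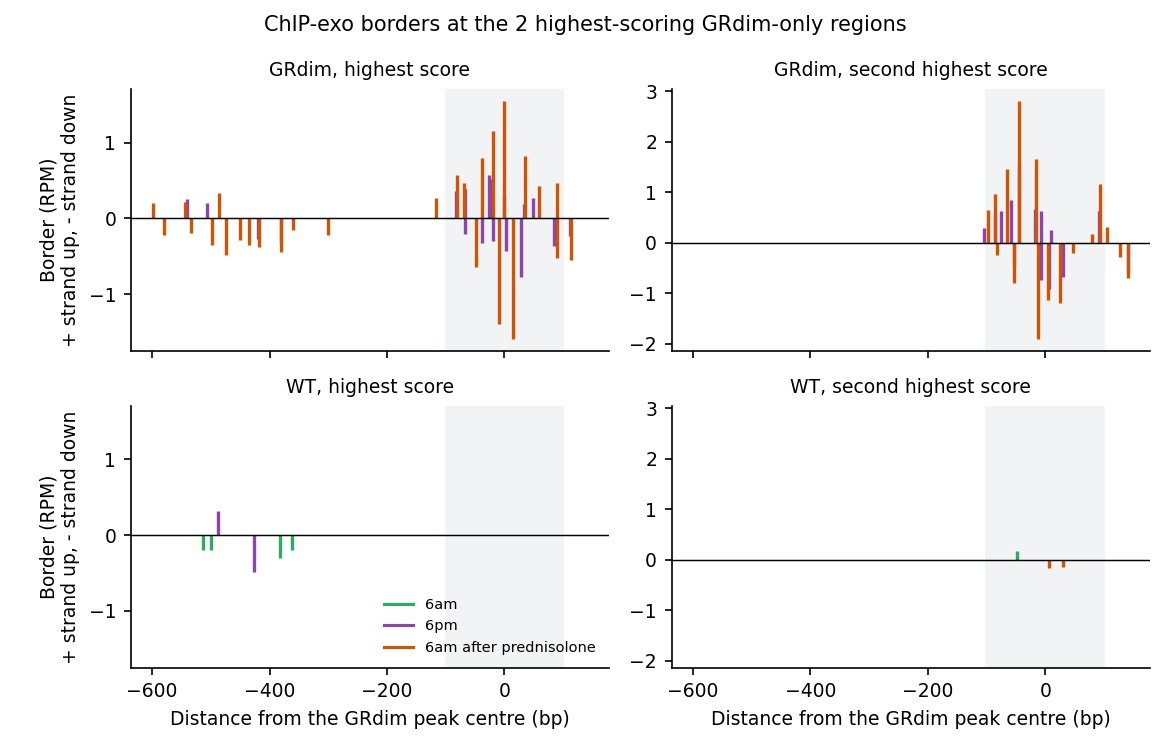
ChIP-exo borders in RPM (plus strand up, minus strand down) against the distance in bp from the GRdim peak centre, at the highest-scoring GRdim-only region (left) and the next (right), in GRdim (top) and WT (bottom), coloured by condition; the grey band is the 200 bp of the peak. GRdim borders reached 1.59 and 2.81 RPM after prednisolone, and WT borders within the band were absent on the left and at most 0.179 RPM on the right.

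Other high-scoring regions differed in what WT showed. The region at chr18:75662436-75662635 scored 5.83 in the 6pm list alone and lay 149 bp from a WT 6am peak with a score of 7.35. All 6 ChIP-exo libraries listed borders in it, with a strongest GRdim border of 0.474 RPM (6am), 0.616 RPM (6pm) and 0.731 RPM (prednisolone) and a strongest WT border of 0.646, 0.951 and 0.329 RPM. C/EBPβ peaks in WT scored 6.27, 6.72 and 3.45 there. It thus had WT borders of the same order as those of GRdim, and counts as GRdim-only since no WT peak overlapped it.

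By contrast, chr2:71983088-71983287 scored 5.35 after prednisolone and was in no other list. It held 6 GRdim borders of that condition, the strongest at 0.952 RPM (43 tags), and no border of the other 5 libraries. The nearest WT peak lay 8729 bp away, and no C/EBPβ peak was listed. The region at chr17:73228434-73228638 scored 5.23 at 6pm and 3.79 after prednisolone. Its strongest GRdim borders were 0.730 RPM at 6pm and 0.731 RPM after prednisolone, with no WT border, no C/EBPβ peak and the nearest WT peak 150435 bp away. These 2 regions were seen in GRdim alone by both assays.

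Further regions without WT borders and over 10000 bp from a WT peak were chr1:34428971-34429170 and chr5:122449067-122449294. The first scored 4.91 after prednisolone, with 11 GRdim borders of that condition of up to 0.731 RPM. The second scored 4.78 at 6pm and 2.16 after prednisolone, with borders of up to 0.297 and 0.266 RPM. Both lacked C/EBPβ peaks, and neither was listed at 6am. Of the 14 regions that reached a score of 4, all 14 had a GRdim border, 6 a WT border and 4 a C/EBPβ peak. Neither a WT border nor a C/EBPβ peak was listed in 8 of them, and 2 were in the GRdim 6am list.

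Among the 8 regions listed in all 3 GRdim lists, the 5 with the highest scores split into both kinds. The region chr8:93393175-93393393 scored 4.21 at 6pm, 2.93 at 6am and 2.79 under prednisolone, 116 bp from a WT prednisolone peak that scored 5.59. Its strongest borders were 0.474, 0.479 and 0.421 RPM in GRdim and 0.395, 0.812 and 0.512 RPM in WT, so it was bound in both genotypes by ChIP-exo. In chr1:182147057-182147271, which scored 2.35, 3.69 and 3.27, WT borders of 0.413, 0.789 and 0.311 RPM stood beside GRdim borders of 0.569, 0.479 and 0.399 RPM, and a WT peak lay 50 bp away. The region chr4:150081756-150081961, at 2.89, 3.44 and 2.30, lay 175 bp from a WT 6am peak that scored 8.03 and held borders of all libraries but GRdim 6am.

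The remaining 2 of these 5 had no WT border in any condition. The region chr5:115925942-115926160 scored highest at 6am, with 3.98, against 3.44 at 6pm and 2.86 under prednisolone, with GRdim borders of 0.664, 0.639 and 0.421 RPM and a WT peak no nearer than 10558 bp. The region chr13:94685835-94686073 scored 2.35, 2.18 and 2.68, with GRdim borders of 0.443, 0.297 and 0.221 RPM and the nearest WT peak at 195922 bp. Neither held a C/EBPβ peak, and both were listed in GRdim under every condition by both assays.

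The distance between a GRdim-only region and the nearest WT peak, edge to edge, ran from 9 to 1800190 bp, with quartiles of 1034, 8729 and 59275 bp. Within 500 bp of a WT peak lay 89 regions, within 1000 bp 117 (24.7%, interval 21.1 to 28.8%), within 10000 bp 247 (52.2%) and within 100000 bp 394. Without the WT 6pm list, 11.3% of the 3062 regions then counted had a WT peak within 1000 bp. For the 117, the nearest WT peak was of the 6pm list in 63, of the 6am list in 32 and of the prednisolone list in 22, and its score ran from 2.03 to 16.36 with a median of 3.30. In 55 of the 89 regions within 500 bp, that WT peak also overlapped a GRdim peak, so that GRdim had both the WT site and a further peak beside it.

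The edge of the rule ran through pairs of adjoining peaks. Just inside it, regions lay 9 bp (chr1:21221910-21222109), 16 bp (chr1:74116573-74116772) and 18 bp (chr4:45424163-45424362) from a WT peak, with GRdim scores of 2.07, 3.48 and 2.42 and WT scores of 5.37, 7.20 and 5.59. All 3 were in the 6pm list alone, held WT borders and held no GRdim border. A further region, chr6:30161994-30162193, tied with the last at 18 bp; it scored 2.07 at 6pm alone, beside a WT peak that scored 3.22, and held no border of either genotype. Just outside it, GRdim peaks that scored 2.46, 2.92 and 2.67 overlapped a WT peak by 2, 3 and 4 bp, the first 2 being the 6am and 6pm peaks of 1 site beside the same WT peak. Regions of both genotypes held only 4 GRdim peaks, of 13262, that overlapped no WT peak themselves and were joined through another peak.

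Regions near a WT peak more often held WT ChIP-exo borders. A border of at least 1 WT library was listed in 54 of 61 regions up to 200 bp from a WT peak (88.5%, 78.2 to 94.3%) and in 40 of 56 between 200 and 1000 bp (71.4%, 58.5 to 81.6%). The share was 53.1% (44.5 to 61.4%) of the 130 between 1000 and 10000 bp, 59.2% (51.1 to 66.8%) of the 147 up to 100000 bp and 44.3% (33.9 to 55.3%) of the 79 beyond. The 3 farther groups have overlapping intervals, all below the nearest group. The GRdim border share was 83.6%, 87.5%, 74.6% (66.5 to 81.3%), 84.4% and 89.9% from the nearest to the farthest group, lowest in the middle one. C/EBPβ peaks were in 54.1%, 32.1%, 52.3%, 49.7% and 43.0% of the same groups, with no order by distance.

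**Figure D3:**
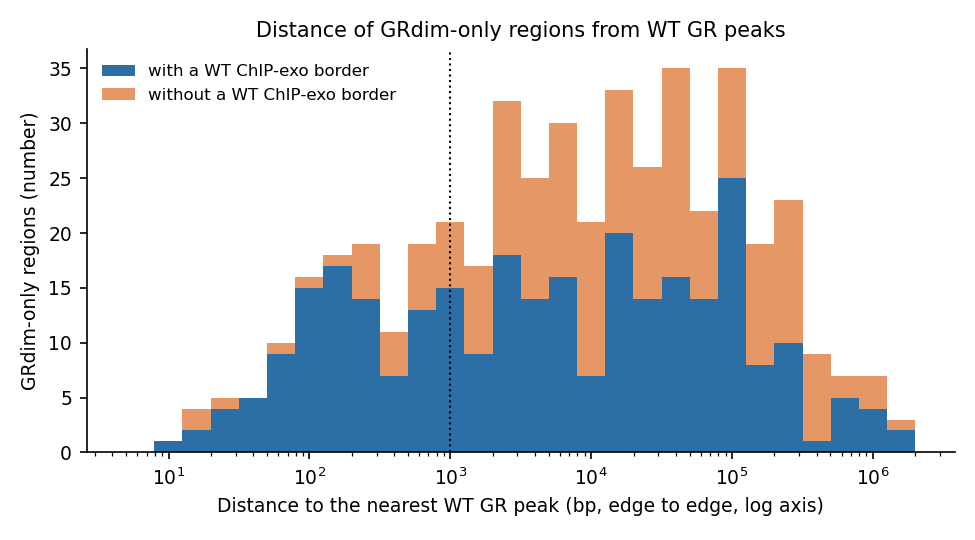
Number of GRdim-only regions by their distance to the nearest WT GR peak in bp (log axis, edge to edge), split by whether a WT ChIP-exo border was listed in them; the dotted line marks 1000 bp. Regions up to 200 bp from a WT peak nearly all held WT borders (88.5%), and 24.7% of all lay to the left of the line.

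ChIP-exo, which the choice of regions did not use, listed borders in most of the regions in GRdim and in a smaller majority in WT. It profiled the same receptor in the same genotypes and conditions, so that choice favours GRdim over WT borders. At least 1 GRdim library listed a border in 392 of 473 (82.9%, 79.2 to 86.0%), against 93.2% of regions of both genotypes and 39.6% of WT-only regions. All merged regions gave 66.9%. At least 1 WT library listed a border in 285 (60.3%, 55.8 to 64.6%), against 97.5% of regions of both genotypes, 84.4% of WT-only regions and 90.0% of all. The difference from the regions of both genotypes was -37.2 points (-41.7 to -32.9), and it was -35.2 points (-40.0 to -30.6) among regions whose highest GRdim score lay from 2 to 3. Thus 60.3% of the regions absent from every WT peak list had at least 1 WT ChIP-exo border, of any strength. With at least 20 tags in a border, the WT share was 7.40% and the GRdim share 12.3%. With borders on both strands of 1 library they were 23.5% and 41.6%.

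By library, GRdim borders were in 16.5% of the regions at 6am, 51.6% at 6pm and 65.1% after prednisolone, against 28.2%, 53.5% and 50.7% of all merged regions. WT borders were in 33.0% at 6am, 27.9% at 6pm and 39.3% after prednisolone, against 71.1%, 74.2% and 58.2% of all merged regions. The prednisolone library thus gave the highest share in each genotype. After prednisolone the WT share was close to that of WT-only regions, with a difference of -3.56 points (-8.00 to 1.05), while at 6am and 6pm it lay -25.0 points (-29.2 to -20.5) and -34.1 points (-38.1 to -29.7) from it. Among regions that scored from 2 to 3, the GRdim prednisolone library marked 62.9% of GRdim-only regions and 64.1% of regions of both genotypes, a difference of -1.19 points (-6.12 to 3.53).

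**Figure D4:**
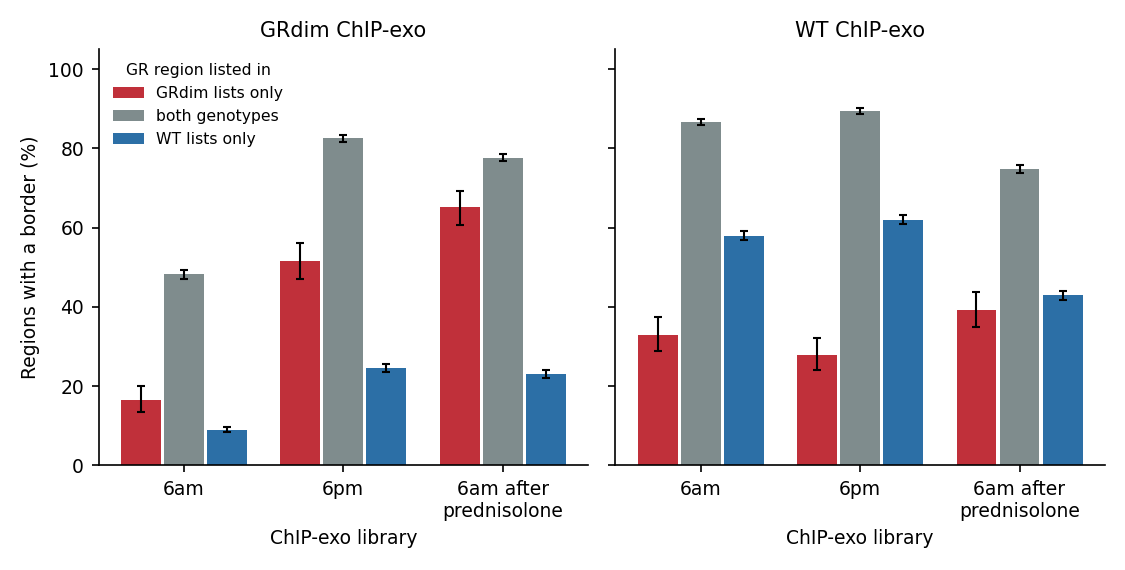
Share of regions (%) with a ChIP-exo border in each GRdim library (left) and WT library (right), for regions listed in GRdim only (473), in both genotypes (7412) and in WT only (7444); bars start at 0 and error bars are Wilson 95% intervals, which cover counting only. GRdim-only regions lay between the other classes in GRdim libraries and lowest in WT libraries, with overlapping intervals for GRdim-only and WT-only regions in WT after prednisolone.

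Each ChIP-seq list had its own ChIP-exo library, and the prednisolone pair matched best. Of the 160 regions listed after prednisolone, 94.4% held a border of the GRdim prednisolone library, against 97.4% of the regions of both genotypes in that list. The share was 57.6% of the 342 regions listed at 6pm, against 84.1%, and 56.7% of the 67 listed at 6am, against 79.0%. The WT library of the same condition marked 45.0%, 32.5% and 68.7% of them in the same order, against 92.1%, 90.1% and 98.2% of the regions of both genotypes. Of the 67 regions of the 6am list, 46 thus had a WT border of their own condition (68.7%, 56.8 to 78.5%). A GRdim border was listed in 38 (56.7%, 44.8 to 67.9%). Both shares are of the same 67 regions, so their separate intervals do not decide whether they differ. The GRdim 6am library was also the one with the fewest tags, and the part of depth in this was not tested.

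Both genotypes had a border in 242 of the regions, GRdim alone in 150, WT alone in 43 and no library in 38. The 150 with GRdim borders alone lay farther from WT peaks than the 242, with a median of 22103.5 against 5182 bp, and 17 of the 150 against 83 of the 242 lay within 1000 bp. Their highest scores were similar, with medians of 2.38 and 2.345, and 21 and 27 of them reached 3. The 38 regions with no border had a median score of 2.14, none reached 3, and 37 rested on 1 list. Of the 43 with WT borders alone, 41 rested on 1 list.

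Within a condition, border strength could be compared only where both genotypes listed one, and such ratios depend on the least number of tags listed in each library. The lowest RPM listed was 0.126 in GRdim and 0.054 in WT at 6am. It was 0.068 and 0.070 at 6pm and 0.066 and 0.055 after prednisolone. The part of these limits in the comparison was not tested. At 6am 45 regions had borders of both libraries, with medians of 0.411 RPM in GRdim and 0.233 in WT, while 33 had GRdim borders alone and 111 WT borders alone. At 6pm 88 had both, at 0.297 and 0.325 RPM, 156 GRdim alone and 44 WT alone. After prednisolone 149 had both, at 0.310 and 0.219 RPM, 159 GRdim alone and 37 WT alone. The stronger border was that of GRdim in 40 of 45, 34 of 88 and 108 of 149 regions, or 88.9%, 38.6% and 72.5%, against 56.3%, 12.5% and 54.4% of the regions of both genotypes with borders in both libraries. The differences were 32.6 points (20.1 to 39.1), 26.1 points (16.6 to 36.6) and 18.1 points (10.3 to 24.8). WT-only regions with borders in both libraries gave 71.9%, 13.3% and 50.9%, with differences of 17.0 points (4.13 to 24.4), 25.4 points (15.7 to 36.0) and 21.6 points (13.3 to 28.9). Where both libraries listed a border, that of GRdim was thus the stronger in most regions of each class at 6am. After prednisolone it was so too, though barely in WT-only regions (50.9%), and at 6pm it was the stronger in a minority of each class. In each condition a stronger GRdim border was most frequent in the GRdim-only regions, which the rule chose for a GRdim peak and no WT peak. That choice favours a stronger GRdim border, so these differences are a description and carry no test. Regions with a border of 1 genotype alone are outside this comparison. At 6am, 33 GRdim-only regions had a GRdim border alone and 111 a WT border alone. These counts were 122 and 2968 in regions of both genotypes and 115 and 3758 in WT-only regions.

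The strongest WT border of all GRdim-only regions was the 0.951 RPM border at 6pm on chromosome 18 given above, followed by that of the chromosome 8 region. The next place was shared by chr1:182147057-182147271, described above, and chr1:67150125-67150324, both at 0.789 RPM (34 tags) at 6pm. The latter scored 2.39 in that list and lay 207 bp from a WT 6am peak that scored 13.66. Its WT borders reached 0.395, 0.789 and 0.494 RPM over the 3 conditions, and its GRdim borders 0.411 RPM at 6am and 0.199 RPM after prednisolone, with none at 6pm. All 4 of these regions lay within 207 bp of a WT peak.

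The distance from the strongest plus-strand to the strongest minus-strand border around the peak centre describes the shape of the footprint. In the GRdim prednisolone library 162 of the regions had borders of both strands. The distance was 10 to 12 bp in 6 of them (3.70%, 1.71 to 7.84%), 24 to 26 bp in 8 (4.94%, 2.52 to 9.44%) and 29 to 31 bp in 3 (1.85%, 0.632 to 5.30%). The regions of both genotypes gave 5.71%, 5.92% and 2.03% in the same library, all within those intervals. In WT after prednisolone, 68 of the regions had both strands, and the counts at the same distances were 2, 4 and 3, so a difference in footprint was not detectable with these numbers.

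C/EBPβ, mapped in WT livers, was listed at fewer of these regions than of the others. A C/EBPβ peak of at least 1 list overlapped 226 of 473 (47.8%, 43.3 to 52.3%), against 92.4% of regions of both genotypes, 74.9% of WT-only regions and 82.5% of all merged regions. The difference from the regions of both genotypes was -44.6 points (-49.1 to -40.1), and -40.4 points (-45.2 to -35.6) among regions that scored from 2 to 3. From the WT-only regions it was -27.1 points (-31.7 to -22.5). Without the WT 6pm list, which leaves 3062 regions in the GRdim-only class, the share was 81.7% and the difference from the regions of both genotypes -12.9 points (-14.4 to -11.4). C/EBPβ was not mapped in GRdim, so these shares say nothing of its binding there.

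By condition, 29.6% of the regions held a C/EBPβ peak at 6am, 41.9% at 6pm and 34.9% after prednisolone, against 67.3%, 79.8% and 58.4% of all merged regions. Where present, the C/EBPβ peaks scored lower than those at regions of both genotypes, with medians of 3.30, 3.31 and 3.81 against 5.26, 5.87 and 5.31. Among all C/EBPβ peaks the medians were 3.62, 3.71 and 3.63. From 6am to prednisolone, 46 of the GRdim-only regions gained a listed C/EBPβ peak in WT and 21 lost one, whereas regions of both genotypes gained 180 and lost 942 and WT-only regions gained 423 and lost 1046. Gains thus outnumbered losses in the GRdim-only regions, and losses outnumbered gains in the other classes. Gains also led both among the GRdim-only regions listed after prednisolone in GRdim (17 gained, 3 lost) and among the others (29 gained, 18 lost). At 6am, however, a C/EBPβ peak was listed in 29.6% of GRdim-only regions, 80.2% of regions of both genotypes and 56.9% of WT-only regions. The counts depend on these starting shares, so their balance does not compare how often a peak was gained or lost. From 6am to prednisolone, 119 GRdim-only regions kept a C/EBPβ peak and 287 had none in either list. These counts were 5001 and 1289 in regions of both genotypes and 3189 and 2786 in WT-only regions. From 6am to 6pm all 3 classes gained more than they lost, with 69 and 11 for the GRdim-only regions.

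The share with C/EBPβ did not rise with GRdim score as it did at regions of both genotypes. It was 48.8% (42.0 to 55.6%) of the 203 regions with a highest score below 2.25, 55.9% of the 118 up to 2.5, 42.2% of the 102 up to 3, 38.9% of the 36 up to 4 and 28.6% (11.7 to 54.6%) of the 14 above. At regions of both genotypes it was 87.9%, 89.2%, 91.2%, 93.7% and 97.3%. The intervals of the GRdim-only groups overlap, which does not decide whether the share falls with score. With only GRdim peaks that scored at least 2.5 the share was 40.6% (33.2 to 48.5%). With a minimum of 3 it was 36.5% (24.8 to 50.1%), against 47.8% of all GRdim-only regions. A trend with score was not tested. Each group lay below its counterpart. The GRdim border share, by contrast, was 73.9%, 83.9%, 93.1%, 94.4% and 100% over the same groups. It rose at regions of both genotypes as well, with 80.0%, 87.0%, 94.9%, 98.3% and 100%.

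**Figure D5:**
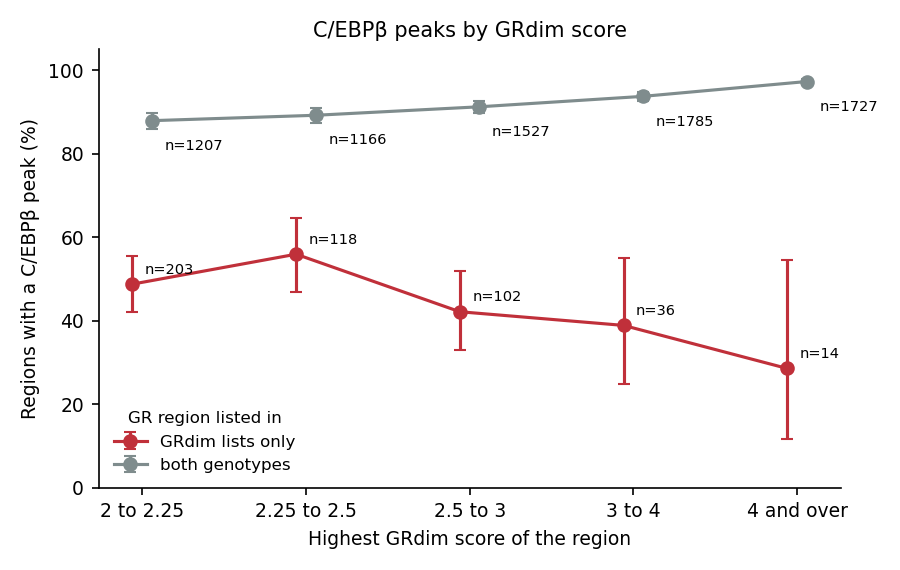
Share of regions (%) with a C/EBPβ peak of any list against the highest GRdim score of the region, for regions listed in GRdim only (red) and in both genotypes (grey), with the number of regions in each group and Wilson 95% intervals, which cover counting only. From the lowest to the highest score group, the red points stand at 48.8%, 55.9%, 42.2%, 38.9% and 28.6%. The grey points rise from 87.9% to 97.3%.

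C/EBPβ was more frequent at regions with WT borders than at those with GRdim borders alone. A C/EBPβ peak was listed in 54.4% (48.6 to 60.1%) of the 285 regions with a WT border and in 34.0% (26.9 to 41.9%) of the 150 with GRdim borders alone, while the 38 with no border had 52.6% (37.3 to 67.5%). Of the 50 regions with a score of 3 or more, 18 lay over 1000 bp from a WT peak and had no WT border, and 3 of these 18 held a C/EBPβ peak. Of the 17 that lay within 1000 bp and had a WT border, 8 held one. Another 12 lay farther off and had a WT border, 6 of them with C/EBPβ, and the last 3 lay within 1000 bp without a WT border, 1 of them with C/EBPβ. The high-scoring regions therefore held both sites beside WT peaks with WT borders and sites listed in GRdim alone by both assays.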

How the data were processed

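GR and C/EBPβ ChIP-seq peak lists and GR ChIP-exo border lists of mouse liver were used as deposited. The 2 RNA polymerase II and 12 input samples were not analysed here. The peak score is the authors' own, with no unit given in the deposited files, and served only to describe and rank peaks within a list. Each ChIP-exo border has a count of tags and an RPM value, per the file headers; their quotient gave the library size. Bowtie, HOMER and mm9 are named per the submitters' processing notes, with roles, versions and calling thresholds not given in the sources used here.

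The members and the lists compared were chosen with earlier results of these data known. A border or C/EBPβ peak counted where it overlapped a region by at least 1 bp. Strongest borders of both strands were taken within 100 bp of the peak centre. Named regions were the 5 with the highest score, the 5 highest in all 3 GRdim lists, the 3 highest with no WT border and no WT peak within 10000 bp, the 3 with the strongest WT border, the 3 with the smallest gap to a WT peak, and the 3 GRdim peaks, at 2 sites, with the smallest overlap with a WT peak; regions tied for the last place were added after their values were seen. Alternatives changed the overlap, score minimum, lists, borders and window. Sequences and annotation of mm9 were not used here. The code was tested on simulated data. The software was Python 3.11.15 with pandas 2.3.3, numpy 2.4.6, matplotlib 3.10.9 and scipy 1.17.1.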

Additional observations from a re-analysis of the deposited data

How the results depend on the processing

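The deficit of C/EBPβ relative to regions of both genotypes kept its sign, with intervals that excluded 0, under all 14 alternatives. Leaving out the WT 6pm list brought it from -44.6 to -12.9 points and raised the number of regions to 3062, with a WT peak within 1000 bp at 11.3%, a WT border at 87.9% and C/EBPβ at 81.7%. Leaving out the GRdim 6pm list gave 213 regions, with a GRdim border at 93.4% and C/EBPβ at 39.4%, and leaving out the GRdim prednisolone list gave a WT border at 64.6%. Lists of equal length gave 1700 regions. A GRdim score of at least 2.5 left 155 regions, with a GRdim border at 94.2% and C/EBPβ at 40.6%; a score of at least 3 left 52, with a WT peak within 1000 bp at 42.3%, a GRdim border at 96.2% and C/EBPβ at 36.5%. Joining by centres within 100 bp gave a WT peak within 1000 bp at 33.6% and C/EBPβ at 52.4%, and widening WT peaks by 200 bp gave the former at 14.0%. WT peaks within 500 and 10000 bp stood at 18.8% and 52.2%. GRdim and WT borders stood at 78.2% and 55.4% within 60 bp of a peak centre, 12.3% and 7.40% with at least 20 tags, and 41.6% and 23.5% on both strands of 1 library. The higher-scoring 50% of C/EBPβ peaks gave 22.8%. For the changes that fewer or stricter lists do not set by construction, the cause was not tested. Searching only the 200 bp of the highest-scoring GRdim peak, an alternative chosen after seeing the data, left both border shares and the C/EBPβ share as they were (82.9%, 60.3% and 47.8%). No paired analysis was possible because each condition is 1 pool. Unlisted binding under the lowest score or tag number, the pooling and the unknown ChIP-seq depth limit every count.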

Other observations

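The GRdim-only regions made up 6.00% of all 7885 regions with a GRdim peak. By chromosome the share ran from 3.39% on chromosome 15 (13 of 383, 1.99 to 5.72%) to 8.88% on chromosome 7 (39 of 439, 6.57 to 11.9%), 8.48% on chromosome 5 (48 of 566, 6.46 to 11.1%) and 9.09% on chromosome X (3 of 33, 3.14 to 23.6%).

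In 22 cases a GRdim-only region lay within 10000 bp of the previous one, and in 6 of these within 1000 bp. Of these 6 pairs, 3 lay over 10000 bp from any WT peak. The pair chr1:81946936-81947135 and chr1:81947535-81947757 scored 2.19 and 3.68, stood 399 bp apart and lay 207921 and 207299 bp from the nearest WT peak.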
